A study of Mus musculus with 17 samples.

Results

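The genes described here are 40 genes of the NRF2 pathway, of glutathione metabolism and of antioxidant defence, chosen by gene symbol. All 40 had a row in each of the 3 deposited count tables, which held 17140 genes for both early hepatocellular carcinoma (HCC) comparisons, 18185 for Kupffer cells and 19188 distinct genes in all. Poly(A) RNA had been sequenced in 17 mouse libraries. Early HCC cells of DEN-treated mice gave 3 libraries of genotype KO for Mef2d, a MEF2 family transcription factor, and 3 of genotype WT, so that both groups share the DEN induction. DEN is not spelled out in the labels, and in rodent liver studies the name usually stands for the carcinogen diethylnitrosamine. Normal liver cells from mice gave 3 libraries. Kupffer cells, which are macrophages that reside in liver sinusoids, came from what the labels call DEN-induced murine PME, an abbreviation not expanded there, and gave 4 libraries labelled KC1 and 4 labelled KC2. The labels give no strain, age, Cre driver, time after DEN or treatment of the normal mice, and do not say whether replicates were separate animals or whether animals were pooled. The worksheet of the KO and WT counts has a title that names a mouse hepatoma line and uses words usual for a knockdown. Whether cultured cells were the source of these libraries was not tested.

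NRF2, encoded by Nfe2l2, is a transcription factor that KEAP1 holds in the cytoplasm and hands to the proteasome. Oxidants and electrophiles modify KEAP1, NRF2 then reaches the nucleus and pairs with small MAF proteins on antioxidant response elements, and genes for glutathione synthesis, thioredoxin recycling, conjugation and export are transcribed. In liver this system protects hepatocytes from drugs and carcinogens, and its lasting activation is a known feature of rodent and human liver tumours. NRF2 activity is set largely at the protein level, which counts of RNA do not show.

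The letters of the antioxidant response element core, TGACNNNGC on either strand, were searched for in RefSeq promoter windows of build GRCm38.p6, which run from 250 bases before a transcript start to 50 after it. Of the 40 genes 34 had a window, and 11 of these 34 (32.4%) held the letters, against 3781 of 27025 genes with a window (14.0%). The share is a description and was not tested. The following members are shown because they cover the regulator and the glutathione, thioredoxin and conjugation branches described below. Capitals mark the 9 letters, and a match that begins with GC lies on the strand opposite to the gene.
Nfe2l2 (chr2:75704879-75704913, minus strand, 240 bases before the start): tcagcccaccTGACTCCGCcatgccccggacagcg
Gclm (chr3:122245407-122245447, plus strand, 134 bases before the start): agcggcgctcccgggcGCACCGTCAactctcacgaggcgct
Txnrd1 (chr10:82859098-82859138, plus strand, 92 bases before the second of 3 annotated starts): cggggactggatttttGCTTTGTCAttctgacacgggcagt
Prdx1 (chr4:116685450-116685490, plus strand, 133 bases before the start): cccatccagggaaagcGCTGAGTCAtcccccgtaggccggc
Ugdh (chr5:65435950-65435990, minus strand, 132 bases before the start): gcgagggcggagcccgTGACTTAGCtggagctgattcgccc
The Prdx1 match overlaps the letters of an AP-1 site (TGACTCA or TGAGTCA), the only member for which this was so. Ugdh held 2 matches in its window, Abcc4 held 1 in each of 2 windows, and Srxn1, Sod1, Gsta3, Gstm5 and Mgst1 held 1 each. Nqo1 and Slc7a11 had a window without these letters, which says nothing of elements farther away. The MEF2 consensus was in the window of 0 of 34 members and of 3.70% of all genes with a window.

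Levels are given as CPM (counts relative to the scaled library total), and library totals ran from 15353249 to 18637765 expected counts. Changes are log2 fold changes with their standard error (SE), and a gene was called changed at a Benjamini-Hochberg adjusted p under 0.05 by the edgeR quasi-likelihood test over all genes. Replicates of the early HCC and normal liver groups were very close (fitted coefficient of variation 0.0340 and 0.0371), so that small differences passed, and those of Kupffer cells were wider (0.267). Since separate animals are not stated, the p-values reflect the spread among libraries alone, and that spread may be technical. The extraction protocol names hepatocytes among the cells used, yet the normal liver libraries held little RNA of defining hepatocyte proteins: Alb was at 2.40 CPM and Ass1 had 0 counts, while Hnf4a was at 119 CPM and the keratin Krt19 at 1081 CPM. In the WT libraries Alb was at 0.131 CPM, Hnf4a at 0.151 CPM and Krt19 at 15.2 CPM. Among the Kupffer libraries KC2 replicate 1 stood apart, with 1454 CPM summed over 8 Kupffer cell markers against a KC2 median of 9143 CPM. Some of the results from KC2 are also given without that library. Each p below is adjusted over all genes of its table.

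In KO against WT early HCC cells the family moved in both directions and mostly by little. NRF2 and KEAP1 transcripts were both lower, the cystine transporter Slc7a11 and the thioredoxin reductase Txnrd1 were higher, and the largest falls were in the transferases Gstm2 and Mgst2 and the epoxide hydrolase Ephx1. Of 33 members tested 14 rose and 14 fell, where 64.5% of all 12093 genes tested were called (32.3% higher and 32.2% lower). By at least 2-fold, 3 members fell and 1 rose, Gpx3, whose call rested on KO replicate 1 alone. Of all genes 7.66% passed that rule (3.62% higher and 4.04% lower). The median log2 fold change was -0.02 over the members tested and -0.00348 over all genes. Cholangiocyte markers (5 genes) summed to 1764 to 1828 CPM in KO and 1335 to 1444 CPM in WT libraries, most of it Spp1 (1730 against 1347 CPM), and their part in the results was not tested. The other 7 members (Gpx2, Gsta3, Gstm1, Gstm5, Gstt1, Cbr1 and Cbr3) were too low to be tested. Mef2d itself was at 69.5, 64.1 and 66.3 CPM in KO and 99.8, 98.3 and 105 CPM in WT libraries (log2 fold change -0.60 ± 0.04, adjusted p = 7.17e-09). It thus stood 1.52-fold lower but was not absent from the libraries labelled KO, and which part of Mef2d was altered is not stated in the labels.

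**Figure D1:**
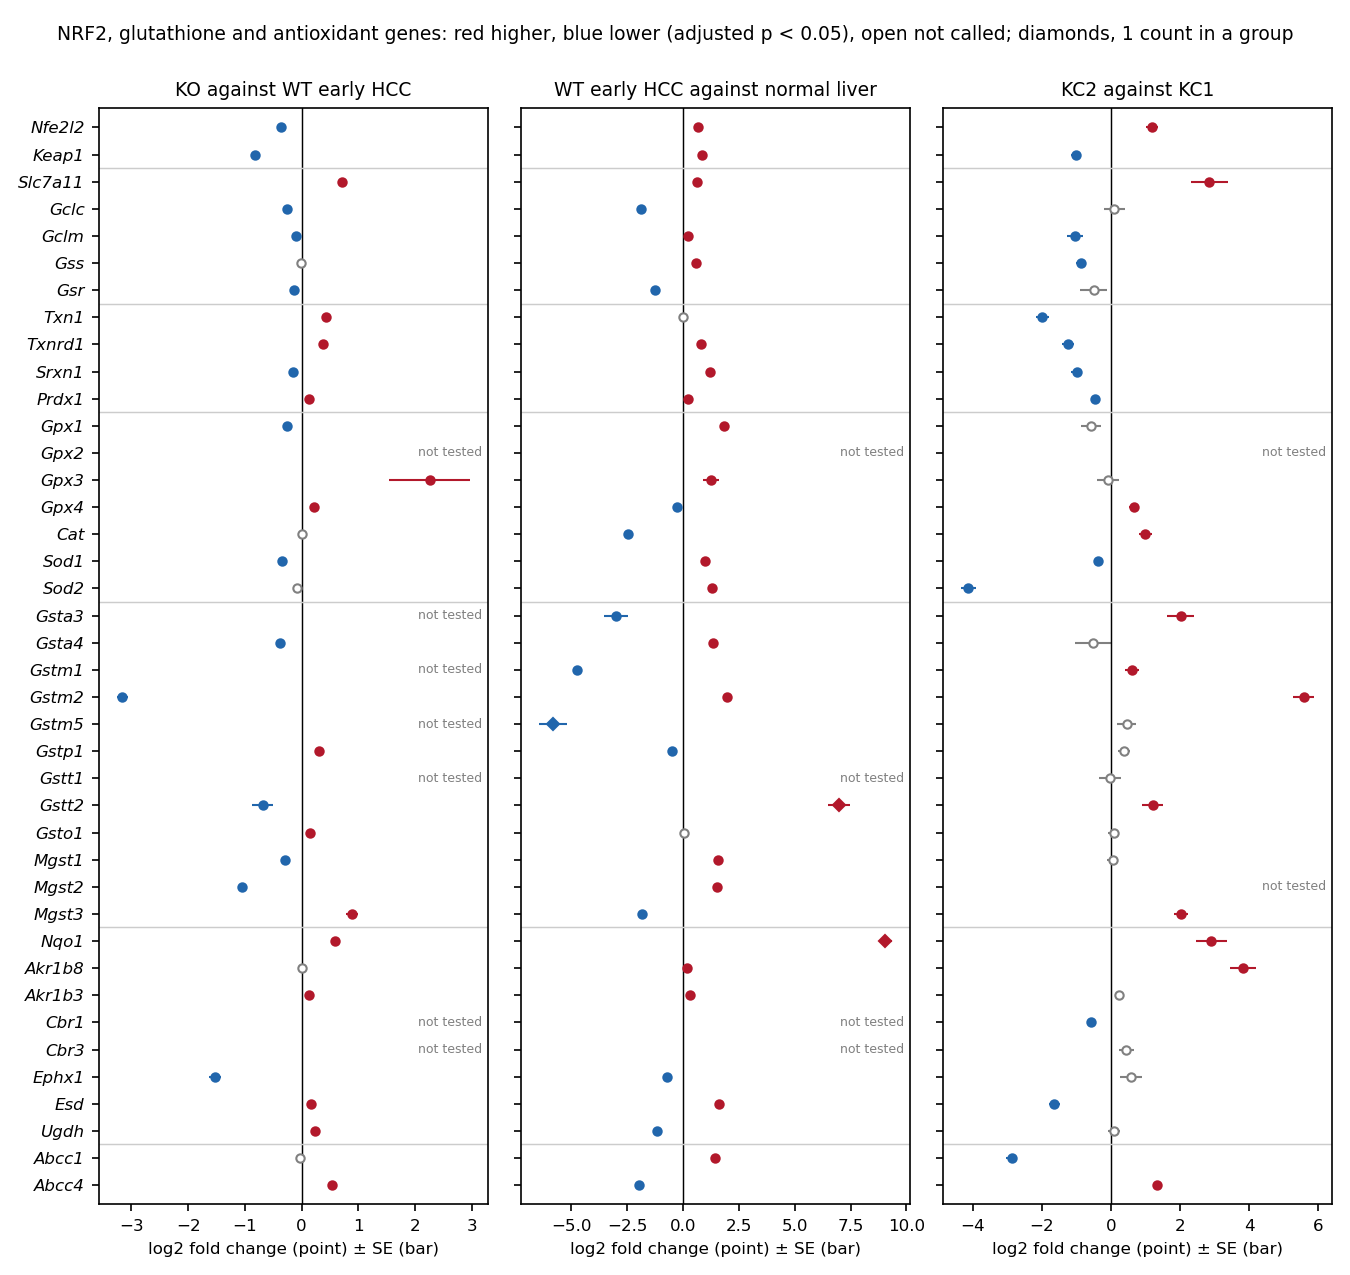
Log2 fold change (points) ± SE (bars) of the 40 genes in the 3 comparisons, in blocks by role from the regulators at the top to the exporters at the bottom, each panel with its own horizontal scale; red is higher and blue lower at an adjusted p under 0.05, open points were not called, and diamonds are fits against a group with 1 count in all. The KO panel holds 14 red and 14 blue points, most of them near 0, with Gstm2 far to the left and Gpx3 far to the right. The normal liver and Kupffer panels spread more widely.

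Both regulators fell in KO cells. Nfe2l2 (gene 18024 on chromosome 2, from base 75675513 to 75704663) was at 205, 211 and 201 CPM in KO and 265, 264 and 266 CPM in WT libraries. Every KO value lay under every WT value, with a level 1.29-fold lower in KO (log2 fold change -0.37 ± 0.03, adjusted p = 8.87e-08). Keap1 (gene 50868 on chromosome 9, from base 21229730 to 21239332) was at 39.4, 42.5 and 42.5 CPM in KO and 70.6, 73.3 and 76.2 CPM in WT libraries. Every KO library lay below every WT library, 1.77-fold on average (log2 fold change -0.82 ± 0.05, adjusted p = 6.19e-10). Genes of chromosome 9 as a whole had a median log2 fold change of -0.25 (665 genes), and Keap1 centred on that median stood at -0.58.

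Among the genes of glutathione supply, only the transporter rose. Slc7a11 (gene 26570 on chromosome 3, from base 50364936 to 50499087), the cystine-importing subunit of system xc-, was at 343, 350 and 343 CPM in KO and 215, 203 and 214 CPM in WT libraries. The KO libraries were all higher, by 1.64-fold (log2 fold change 0.71 ± 0.03, adjusted p = 6.24e-11). Gclc, the catalytic subunit of glutamate-cysteine ligase, was at 75.2, 68.6 and 70.9 CPM in KO and 87.9, 83.8 and 86.3 CPM in WT libraries (log2 fold change -0.26 ± 0.04, adjusted p = 5.83e-05). Gclc also lies on chromosome 9, and centred on the median of that chromosome its value was -0.02. Gclm, the modifier subunit, was at 67.2, 67.2 and 65.3 CPM in KO and 71.5, 70.1 and 72.5 CPM in WT libraries, a 1.07-fold difference (adjusted p = 0.0355) whose call ended in 8 of 11 alternatives. Gsr, which regenerates reduced glutathione, fell 1.09-fold (adjusted p = 0.00941). Gss, glutathione synthetase, averaged 33.2 ± 1.69 CPM in KO against 33.6 ± 0.793 CPM in WT (SD, n = 3 each), a difference within the replicate spread (adjusted p = 0.817).

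In the thioredoxin system 3 of 4 genes rose and 1 fell, although 2 of the rises turned when centred on their chromosome. Txnrd1, the cytosolic thioredoxin reductase, was at 741, 755 and 740 CPM in KO and 583, 589 and 556 CPM in WT libraries, without overlap and 1.29-fold higher (log2 fold change 0.37 ± 0.03, adjusted p = 8.00e-08). Centred on chromosome 10, Txnrd1 stood at 0.25. Txn1, the substrate of Txnrd1, was 1.35-fold higher (206 ± 3.33 against 153 ± 7.70 CPM, adjusted p = 9.36e-08), and the peroxiredoxin Prdx1 was 1.10-fold higher (622 ± 4.34 against 565 ± 5.37 CPM, adjusted p = 0.00089). Txn1 and Prdx1 lie on chromosome 4, whose 760 genes had a median log2 fold change of 0.49. Centred on that median both changed sign, to -0.05 and -0.35. Srxn1, the sulfiredoxin that repairs overoxidised peroxiredoxins, was at 84.4, 86.4 and 89.5 CPM in KO and 94.3, 94.3 and 98.8 CPM in WT libraries, a fall of 1.10-fold (log2 fold change -0.14 ± 0.04, adjusted p = 0.0047) that centring on chromosome 2 took to -0.068.

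Enzymes that remove peroxide and superoxide split, with 2 of 6 tested members called higher and 2 lower. Gpx4, which reduces lipid hydroperoxides and guards against ferroptosis, rose 1.16-fold (230 ± 4.27 against 198 ± 5.76 CPM, adjusted p = 4.87e-05), and its log2 fold change of 0.22 was 0.094 when centred on chromosome 10. Sod1, the cytosolic superoxide dismutase, fell 1.27-fold (103 ± 0.783 against 132 ± 3.30 CPM, adjusted p = 4.13e-07). Gpx1, the cytosolic glutathione peroxidase, fell 1.20-fold (225 ± 7.82 against 270 ± 19.9 CPM), and it too lies on chromosome 9 and stood at -0.01 when centred. Cat (22.7 ± 2.0 against 22.5 ± 1.26 CPM, adjusted p = 0.893) and the mitochondrial Sod2 (111 ± 2.78 against 116 ± 5.52 CPM, adjusted p = 0.127) were not called. Gpx3, the plasma glutathione peroxidase, was at 14.7, 1.97 and 1.43 CPM in KO and 0.834, 1.69 and 1.19 CPM in WT libraries. The Gpx3 groups overlapped, and KO replicate 1 alone made the call: with it the log2 fold change was 2.26 ± 0.71 (adjusted p = 0.0115), and without it 0.44 (adjusted p = 0.241).

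Conjugating enzymes held the widest range in this comparison, with 3 of 8 tested glutathione transferases called higher and 5 lower. Gstm2 (gene 14863 on chromosome 3, from base 107981702 to 107986420), a mu class cytosolic transferase, was at 3.01, 2.66 and 2.45 CPM in KO and 24.3, 25.2 and 23.4 CPM in WT libraries. It was 8.97-fold lower in KO cells (log2 fold change -3.16 ± 0.10, adjusted p = 4.09e-13), far beyond the spread of either group. Its neighbour Gstm1 was lower still in both groups (0.250 ± 0.0346 against 0.725 ± 0.255 CPM, 13 and 38 counts) and was not tested. Mu class transferases are close paralogs in a gene cluster, so the division of reads among them is uncertain. Mgst2, a microsomal transferase, was at 16.9, 17.6 and 20.2 CPM in KO and 36.5, 37.0 and 40.3 CPM in WT libraries (log2 fold change -1.05 ± 0.07, adjusted p = 4.61e-09), a fall of 2.08-fold. Mgst3, of the same membrane family, went the other way at 13.8, 11.7 and 13.1 CPM in KO and 6.50, 7.84 and 6.47 CPM in WT libraries (log2 fold change 0.89 ± 0.10, adjusted p = 1.46e-06). Gstt2, of the theta class, was at 2.38, 1.74 and 1.94 CPM in KO and 3.4, 2.82 and 3.52 CPM in WT libraries, 1.61-fold lower (adjusted p = 0.00397). Gsta4, which conjugates the lipid aldehyde hydroxynonenal, and Mgst1 fell 1.30-fold and 1.22-fold, whereas Gstp1, which is uncertain beside its near-identical neighbours, and Gsto1 rose 1.24-fold and 1.10-fold. Gsta4 lies on chromosome 9, and centring took its log2 fold change from -0.38 to -0.14. Gsta3 had 6 counts in each group and Gstm5 and Gstt1 had at most 2 counts in a group.

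Of the reductases and hydrolases 4 of 6 tested members rose and 1 fell. Nqo1 (gene 18104 on chromosome 8, from base 107388225 to 107403205), the quinone reductase used most widely as an NRF2 target, was at 20.7, 20.4 and 20.7 CPM in KO and 12.5, 14.0 and 14.3 CPM in WT libraries. The KO libraries were all higher, by 1.51-fold (log2 fold change 0.60 ± 0.07, adjusted p = 3.07e-06). Ephx1, the microsomal epoxide hydrolase, was at 5.04, 5.38 and 5.82 CPM in KO and 13.4, 16.6 and 16.5 CPM in WT libraries. It fell 2.87-fold (log2 fold change -1.52 ± 0.11, adjusted p = 5.75e-09). Ugdh, which makes UDP-glucuronate, rose 1.18-fold, Esd, esterase D, rose 1.12-fold and the aldose reductase Akr1b3 rose 1.10-fold, with a log2 fold change of 0.13 that centring on chromosome 6 took to 0.042, while the related reductase Akr1b8 was at 64.7 ± 2.55 against 64.0 ± 5.59 CPM (adjusted p = 0.82). Of the conjugate exporters Abcc4 rose 1.46-fold (48.7 ± 2.11 against 33.4 ± 1.25 CPM, adjusted p = 1.67e-07), and Abcc1 was at 210 ± 5.46 against 214 ± 13.5 CPM (adjusted p = 0.569). The carbonyl reductase genes Cbr1 and Cbr3 had 21 counts in each group and at most 1 count in a group.

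**Figure D2:**
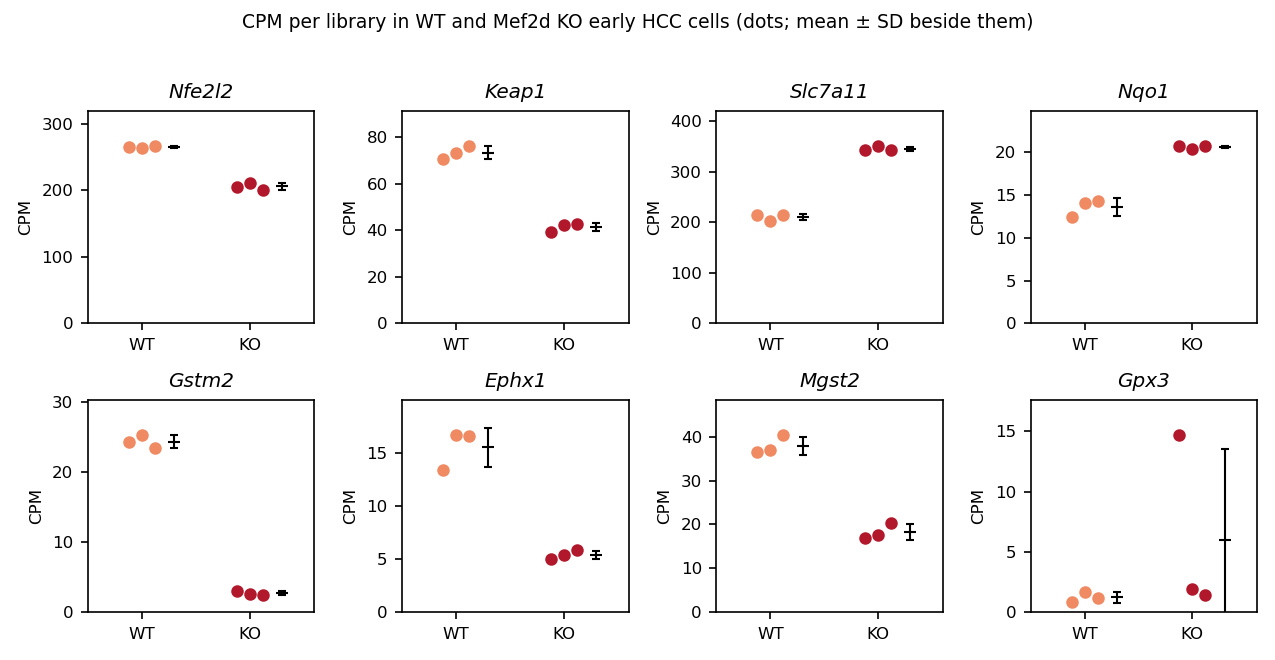
Level in CPM (vertical axis, from 0) of 8 genes in each of 3 WT and 3 Mef2d KO early HCC libraries (dots), with the mean and SD beside them; the SD bar of Gpx3 in KO runs below 0 and is clipped there. Nfe2l2, Keap1, Gstm2, Ephx1 and Mgst2 are lower in every KO library, Slc7a11 and Nqo1 are higher in every KO library, and for Gpx3 a single KO library at 14.7 CPM stands above the other five.

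A wider list of 56 other genes of the pathway was counted in the same fit. Of 49 tested 21 rose and 19 fell. The largest rises were those of Ftl1, the ferritin light chain (2.94-fold, 1291 against 440 CPM), Txnrd3, a thioredoxin reductase (2.37-fold), and Blvrb, biliverdin reductase B (2.21-fold). The largest falls were in the transferases Gstm6 (2.59-fold, at 0.461 against 1.19 CPM) and Gstm7 (1.86-fold) and in aldehyde oxidase, Aox1 (2.22-fold). Ferritin light chain has processed copies in the genome, so its value is uncertain.

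The second comparison set WT early HCC against normal liver cells, where 34 of 36 members tested changed. Early HCC cells had more NRF2 and KEAP1 transcript, Nqo1 was far above its level near 0 in normal liver, and superoxide dismutases, sulfiredoxin, the microsomal transferases Mgst1 and Mgst2 and Abcc1 were higher. Catalase, the catalytic subunit of glutamate-cysteine ligase, glutathione reductase, Gstm1 and Abcc4 were lower. In numbers, 22 members rose and 12 fell, where 87.2% of all 12697 tested genes were called (43.9% higher and 43.3% lower). By at least 2-fold 12 rose and 9 fell, where 41% of all genes passed that rule (20.3% higher and 20.7% lower). The median log2 fold change was 0.45 over the members tested and 0.01 over all genes. Gpx2, Gstt1, Cbr1 and Cbr3 were too low to be tested. The WT libraries are the ones used against KO, and scaling them with normal liver moved their mean CPM by 0.558% to 1.04%. Hepatocyte markers (6 genes) summed to 118 to 127 CPM in normal liver and 0.178 to 0.731 CPM in WT libraries. Hnf4a alone made up 119 CPM of the sum in normal liver, where Alb was at 2.40 CPM and Apoa1 at 0.933 CPM. Ass1 had 0 counts there. Cholangiocyte markers (5 genes) summed to 1688 to 1720 CPM in normal liver and 1330 to 1429 CPM in WT libraries. Within the latter list Krt7 (409 against 0.361 CPM), Krt19 and Sox9 (53.4 against 0.0957 CPM) were higher in normal liver, and Spp1 (163 against 1337 CPM) and Epcam (0 counts against 15.3 CPM) were higher in WT. Endothelial markers (7 genes) summed to 71.9 to 75.5 CPM in normal liver and 4.10 to 4.61 CPM in WT, but Ptprb alone made up 72.9 CPM of the former, and the other 6 were at most 1.08 CPM in normal liver and 3.31 CPM in WT. The groups also differed in RNA of chromosome Y, whose 4 tested genes had a median log2 fold change of 5.23, against 0.0164 in KO against WT. Stellate cell markers (5 genes) summed to 0.654 to 0.826 CPM in normal liver and 10.8 to 15.8 CPM in WT. Most of the WT sum was Des (10.4 CPM) and Col1a1 (2.44 CPM). Dcn had 0 counts in WT, Col3a1 had 2 and Col1a2 had 8. Neutrophil markers (3 genes) summed to 0.165 to 0.218 CPM in normal liver and 1.85 to 2.91 CPM in WT. The part of these differences in the results was not tested. In these bulk samples fewer cells of a type and less RNA per cell cannot be told apart.

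Nfe2l2 was at 264, 262 and 263 CPM in WT and 173, 166 and 164 CPM in normal liver libraries, 1.57-fold higher (log2 fold change 0.65 ± 0.04, adjusted p = 3.13e-11). Keap1 was at 70.4, 72.9 and 75.4 CPM in WT and 38.8, 40.7 and 41.7 CPM in normal liver libraries, 1.80-fold higher (log2 fold change 0.85 ± 0.05, adjusted p = 3.62e-11). Chromosome 9 had a median log2 fold change of 0.34 (702 genes), and Keap1 centred on it stood at 0.51. Neither gene had overlapping groups. Both regulators were therefore higher in WT than in normal liver cells and lower in KO than in WT cells, 2 differences that share the WT libraries.

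Steps of glutathione synthesis went in opposite directions. Slc7a11 was at 214, 202 and 212 CPM in WT and 131, 142 and 133 CPM in normal liver libraries, 1.55-fold higher (log2 fold change 0.63 ± 0.04, adjusted p = 2.95e-10). Gclc was at 87.6, 83.2 and 85.4 CPM in WT and 311, 311 and 314 CPM in normal liver libraries. The catalytic subunit was thus 3.66-fold lower in every early HCC library (log2 fold change -1.87 ± 0.04, adjusted p = 2.79e-17). Its partner Gclm was at 71.2, 69.7 and 71.8 CPM in WT and 61.2, 62.6 and 60.8 CPM in normal liver libraries, 1.15-fold higher (adjusted p = 0.000289). Gss rose 1.5-fold (33.4 ± 0.845 against 22.2 ± 0.560 CPM), and Gsr fell 2.42-fold (79.3 ± 0.619 against 192 ± 4.11 CPM, adjusted p = 6.30e-15).

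In the thioredoxin system 3 of 4 genes rose and none fell. Txnrd1 was at 581, 585 and 551 CPM in WT and 328, 336 and 327 CPM in normal liver libraries (log2 fold change 0.79 ± 0.04, adjusted p = 1.38e-12). Srxn1 was at 94.0, 93.7 and 97.7 CPM in WT and 40.2, 42.7 and 41.3 CPM in normal liver libraries, 2.30-fold higher (log2 fold change 1.20 ± 0.05, adjusted p = 1.11e-13). Prdx1 rose 1.17-fold (log2 fold change 0.22, and 0.40 when centred on chromosome 4), and Txn1 was at 152 ± 7.20 against 151 ± 4.12 CPM (adjusted p = 0.911).

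Of the peroxide and superoxide removing enzymes 4 of 6 tested rose and 2 fell. Cat, the peroxisomal catalase, was at 23.7, 22.1 and 21.1 CPM in WT and 125, 122 and 118 CPM in normal liver libraries, 5.45-fold lower (log2 fold change -2.45 ± 0.05, adjusted p = 4.77e-17). Gpx1 rose 3.54-fold (268 ± 18.8 against 75.7 ± 2.98 CPM, adjusted p = 2.01e-15). Both dismutases rose, Sod1 by 1.95-fold (131 ± 2.83 against 67.1 ± 0.924 CPM) and Sod2 by 2.45-fold (116 ± 5.84 against 47.2 ± 1.18 CPM). Gpx4 fell 1.22-fold (197 ± 5.10 against 241 ± 10.7 CPM, adjusted p = 4.60e-06), with a log2 fold change of -0.29 that centring on chromosome 10 took to -0.47. Gpx3 was at 1.23 ± 0.427 against 0.512 ± 0.139 CPM (adjusted p = 0.0032) and lost its call in the joint fit of 9 libraries (adjusted p = 0.257). Gpx2 had 3 counts in WT and 4 in normal liver libraries.

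Transferases split, with 5 of 11 tested members higher and 5 lower. Gstm1 was at 0.534, 1.01 and 0.618 CPM in WT and 19.7, 20.3 and 19.4 CPM in normal liver libraries, 27.4-fold lower (log2 fold change -4.76 ± 0.15, adjusted p = 9.80e-15). Gstm2 was at 24.2, 25.0 and 23.2 CPM in WT and 6.05, 5.73 and 6.70 CPM in normal liver libraries, 3.92-fold higher (log2 fold change 1.97 ± 0.09, adjusted p = 8.67e-13). These 2 mu class neighbours therefore moved in opposite directions. Gstm5 had 1 count over the WT and 81 counts over the normal liver libraries, a count ratio of 77.7 in favour of normal liver (95% interval from 13.6 to 3108). Gsta3, an alpha class enzyme, was at 0.178, 0.0560 and 0.112 CPM in WT and 0.716, 1.43 and 0.763 CPM in normal liver libraries (adjusted p = 5.34e-05), low in both. Gstt2 had 169 counts over the WT and 1 count over the normal liver libraries, a count ratio of 176 (95% interval from 31.2 to 6996). The microsomal Mgst1 and Mgst2 rose 2.95-fold and 2.90-fold and Gsta4 rose 2.56-fold, while Mgst3 fell 3.62-fold. Gstp1 fell 1.42-fold (143 ± 5.98 against 203 ± 10.7 CPM, log2 fold change -0.50), but it lies on chromosome 19, whose genes had a median log2 fold change of -0.92, and centred on that median it was at 0.41. Gsto1, on the same chromosome, was at 379 ± 0.838 against 370 ± 7.93 CPM (adjusted p = 0.333). Centring took its log2 fold change from 0.036 to 0.95.

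Nqo1 showed the widest gap of the family. It was at 12.4, 13.9 and 14.2 CPM in WT libraries, while the normal liver libraries held 1 count in all. The count ratio was 740 (95% interval from 132 to 29260). Abcc4 was at 32.1, 34.5 and 33.0 CPM in WT and 132, 126 and 128 CPM in normal liver libraries (log2 fold change -1.95 ± 0.05, adjusted p = 1.95e-16), 3.88-fold lower, and Abcc1 was 2.73-fold higher (213 ± 12.7 against 78.0 ± 0.849 CPM, adjusted p = 1.06e-14). Esd rose 3.05-fold, Akr1b3 rose 1.24-fold and Akr1b8 rose 1.12-fold. Centring on chromosome 6 took Akr1b3 from 0.31 to 0.61 and Akr1b8 from 0.16 to 0.47 on the log2 scale. The call of Akr1b8 (adjusted p = 0.0137) ended without normal liver replicate 3 (adjusted p = 0.0661) or WT replicate 3 (adjusted p = 0.0980). Ugdh and Ephx1 fell 2.24-fold and 1.67-fold. Cbr1 had 21 counts over the WT and 2 over the normal liver libraries (count ratio 10.9, 95% interval from 2.67 to 96.2), and Cbr3 and Gstt1 had at most 2 counts in a group.

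**Figure D3:**
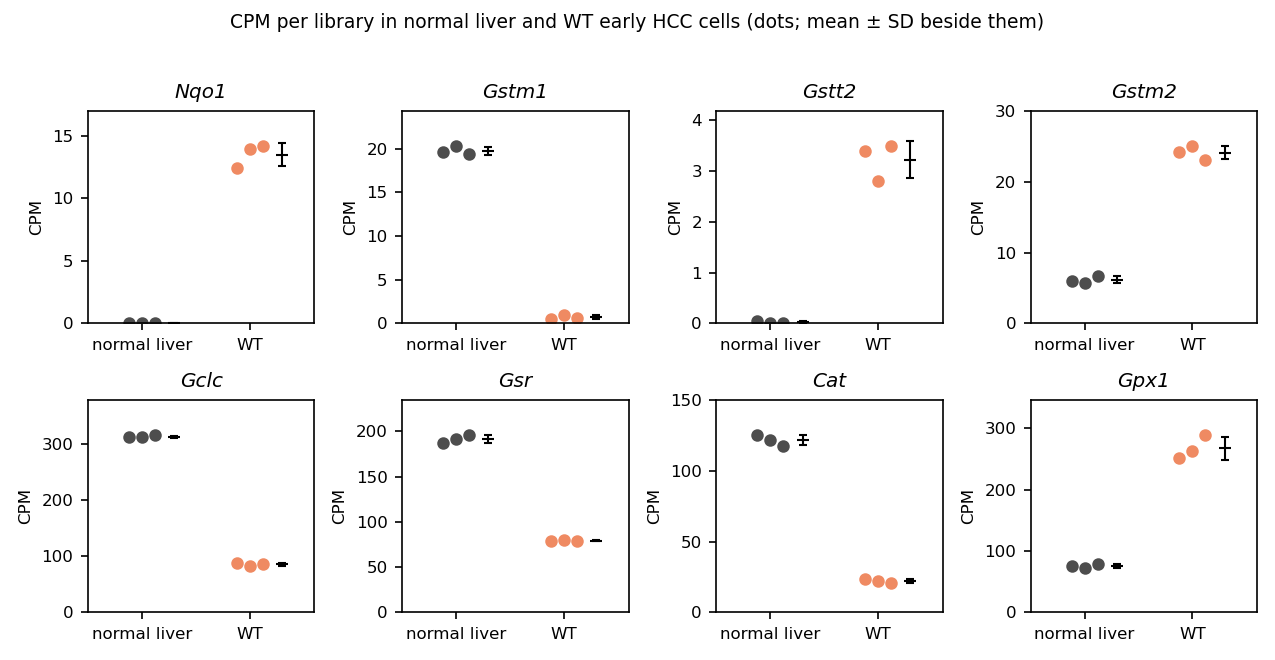
Level in CPM (vertical axis, from 0) of 8 genes in each of 3 normal liver and 3 WT early HCC libraries (dots), with the mean and SD beside them. Nqo1, Gstt2, Gstm2 and Gpx1 are higher in every WT library and Gstm1, Gclc, Gsr and Cat are lower in every WT library, with no overlap between groups.

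Of the other 56 pathway genes 50 were tested, and 20 rose and 25 fell. Gstt3, a theta class transferase, had 607 counts in WT and 1 in normal liver libraries (count ratio 632, 95% interval from 113 to 25021), and Sod3, the extracellular dismutase, had 263 and 1 (count ratio 274, 95% interval from 48.8 to 10864). Gstm6 rose from 4 counts to 62. The exporters Abcc3 (34.9-fold, 4.63 against 161 CPM) and Abcc2 (3 against 129 counts) and Osgin1, an NRF2 target induced by oxidative stress (10.6-fold), fell the most.

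The third comparison set KC2 against KC1 Kupffer cells. KC2 libraries had more NRF2 and less KEAP1 transcript, and strongly higher Gstm2, Akr1b8, Nqo1 and Slc7a11, whereas manganese superoxide dismutase, the exporter Abcc1 and all 4 thioredoxin system genes were lower. Of 38 members tested 12 rose and 12 fell, where 59.8% of all 12774 genes tested were called (31.9% higher and 27.9% lower). By at least 2-fold 10 rose and 7 fell, and 36.7% of all genes passed that rule (22.1% higher and 14.6% lower). The median log2 fold change was 0.09 over the members tested and 0.03 over all genes. Without KC2 replicate 1 there were 13 higher and 13 lower. Gpx2 and Mgst2 were too low to be tested. Mef2d was at 49.8 ± 6.15 CPM in KC2 and 46.2 ± 5.19 CPM in KC1 (SD, n = 4 each, adjusted p = 0.484).

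Markers of other cell types differed between the Kupffer groups. The sum over 8 markers of sinusoidal endothelium ran from 9237 to 15024 CPM in KC2 and from 397 to 520 CPM in KC1 libraries, with Clec4g at 4058 against 10 CPM. The sum over 8 Kupffer cell markers ran from 1454 to 10444 CPM in KC2 and from 22092 to 30796 CPM in KC1, and none of these 8 was at 0 in either group. Neutrophil (4 genes, 433 to 3676 against 37.5 to 168 CPM), B cell (4 genes, 105 to 499 against 9.70 to 13.5 CPM), T or NK cell (4 genes, 74.0 to 301 against 0.970 to 3.38 CPM) and cholangiocyte markers (5 genes, 160 to 797 against 7.25 to 16.5 CPM) were also higher in KC2, and Epcam had 0 counts in KC1. Hepatocyte markers (9 genes) summed to 218 to 305 CPM in KC2 and 91.7 to 172 CPM in KC1, erythroid markers (4 genes) to 95.5 to 235 and 62.8 to 211 CPM, and stellate cell markers (6 genes) to 15.9 to 20 and 10.4 to 22.9 CPM. Within the hepatocyte list Fgb was lower in KC2 (7.77 against 32.2 CPM) and Ass1 was level (34.3 against 33.6 CPM). The rest were higher, such as Alb (99.8 against 19.7 CPM). Within the Kupffer cell list Vsig4 was higher in KC2 (462 against 369 CPM). The rest were lower, such as Marco (154 against 8131 CPM). The erythroid and stellate cell sums overlapped. The other sums separated the same groups as the results below, and their part in those results was not tested.

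**Figure D4:**
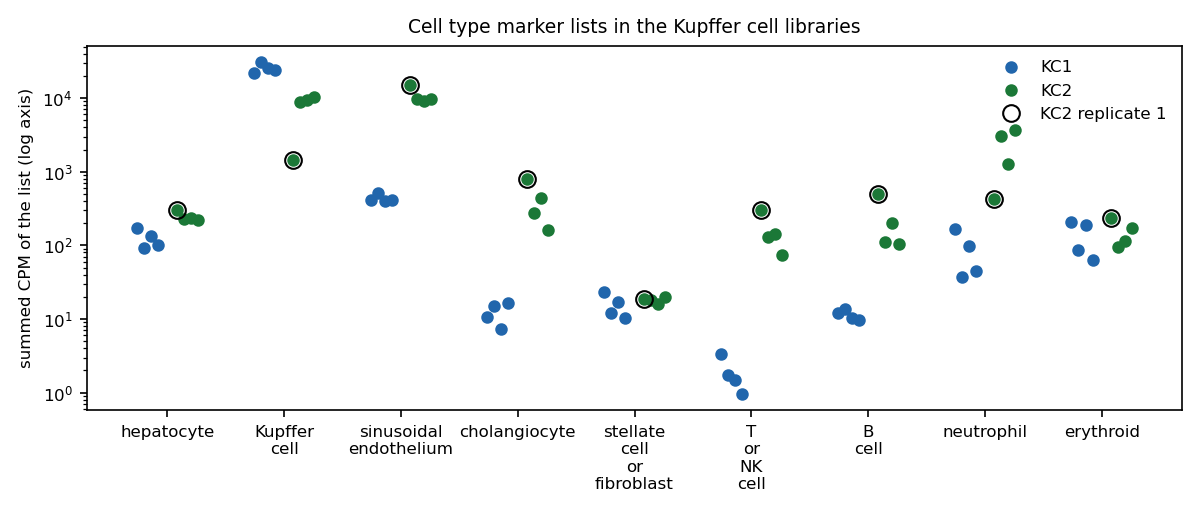
Summed CPM (vertical log axis) of 9 marker lists in each of 4 KC1 (blue) and 4 KC2 (green) libraries, with KC2 replicate 1 ringed. The endothelial sum is at 9237 CPM or more in every KC2 library and at most 520 CPM in KC1, and the ringed library is lowest in Kupffer cell markers at 1454 CPM and highest in endothelial markers at 15024 CPM.

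Nfe2l2 was at 284, 422, 338 and 438 CPM in KC2 and 143, 182, 140 and 181 CPM in KC1 libraries. All 4 KC2 values exceeded all KC1 values, and the mean was 2.29-fold higher in KC2 (log2 fold change 1.20 ± 0.17, adjusted p = 0.000175). Keap1 was at 71.2, 54.1, 73.1 and 53.1 CPM in KC2 and 126, 112, 135 and 133 CPM in KC1 libraries, 2.01-fold lower (log2 fold change -1.01 ± 0.14, adjusted p = 0.000138). The regulators thus moved apart here, whereas in both early HCC comparisons they moved the same way.

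Slc7a11 was at 20.6, 84.2, 22.2 and 68.5 CPM in KC2 and 11.8, 5.61, 6.11 and 3.46 CPM in KC1 libraries. It was 7.25-fold higher with a wide spread, as KC2 replicates 2 and 4 were at over 60 CPM and replicates 1 and 3 near 20 CPM (log2 fold change 2.86 ± 0.53, adjusted p = 0.000878). Gclc was at 13.2, 12.4, 7.16 and 5.11 CPM in KC2 and 8.08, 7.63, 9.39 and 10.1 CPM in KC1 libraries, overlapping (adjusted p = 0.777). Gclm was at 4.26, 3.70, 3.88 and 4.62 CPM in KC2 and 8.22, 6.45, 10 and 9.15 CPM in KC1 libraries, 2.05-fold lower (log2 fold change -1.04 ± 0.23, adjusted p = 0.00269). Gss fell 1.83-fold. Gsr was at 26.1, 136, 53.9 and 89.5 CPM in KC2 and 108, 85.7, 128 and 110 CPM in KC1 libraries (adjusted p = 0.298).

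All 4 genes of the thioredoxin system fell. Txn1 was 3.95-fold lower (192 ± 27.2 against 759 ± 160 CPM, adjusted p = 9.46e-06). Txnrd1 was at 39.5, 54.9, 32.7 and 51.0 CPM in KC2 and 96.2, 92.2, 112 and 116 CPM in KC1 libraries (log2 fold change -1.23 ± 0.17, adjusted p = 0.00014). Srxn1 was at 14.3, 13.5, 11.9 and 9.85 CPM in KC2 and 25.6, 26.7, 21.8 and 24.1 CPM in KC1 libraries, 1.98-fold lower (adjusted p = 0.000386). Prdx1 fell 1.36-fold (648 ± 55.5 against 881 ± 63.7 CPM, adjusted p = 0.0147).

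Sod2 (gene 20656 on chromosome 17, from base 13007839 to 13018119), the manganese dismutase of mitochondria and a well known NF-kB target, was at 74.5, 110, 117 and 112 CPM in KC2 and 1825, 1404, 2142 and 1839 CPM in KC1 libraries. It was 17.4-fold lower in KC2 (log2 fold change -4.12 ± 0.22, adjusted p = 2.09e-07), and its log2 fold change was -3.99 without KC2 replicate 1. Sod1 fell 1.28-fold (393 ± 33.2 against 503 ± 44.0 CPM, adjusted p = 0.0362), a call that ended under the replicate block (adjusted p = 0.0558) and without KC1 replicate 1, 3 or 4 or KC2 replicate 2 or 3 (adjusted p from 0.0530 to 0.0979). Cat rose 2.01-fold (158 ± 23.7 against 78.6 ± 21.1 CPM, adjusted p = 0.001) and Gpx4 rose 1.59-fold (409 ± 40.4 against 258 ± 39.3 CPM, adjusted p = 0.00276). Gpx1 was at 378, 1003, 897 and 1058 CPM in KC2 and 1257, 1451, 1206 and 1068 CPM in KC1 libraries (adjusted p = 0.10), and without KC2 replicate 1, its lowest library, the adjusted p was 0.0388. Gpx3 was at 30.9 CPM in KC2 replicate 1 and 90.4 to 99.6 CPM in the other KC2 libraries, against 84.6 ± 15.8 CPM in KC1 (adjusted p = 0.825). Gpx2 was at most 1.86 CPM in any Kupffer library.

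Of 11 tested transferases 5 rose and none fell. Gstm2 was at 190, 122, 141 and 107 CPM in KC2 and 3.66, 2.48, 4.03 and 1.52 CPM in KC1 libraries. It was 47.9-fold higher (log2 fold change 5.58 ± 0.31, adjusted p = 2.65e-07), and 5.40 on the log2 scale without KC2 replicate 1. Gstm1 was at 315, 196, 273 and 198 CPM in KC2 and 202, 128, 175 and 140 CPM in KC1 libraries, with overlap (adjusted p = 0.024), and its call ended without KC1 replicate 2 or 4 or KC2 replicate 3 (adjusted p from 0.0628 to 0.0736). Mgst3 was at 25.6, 16.6, 20.2 and 17.8 CPM in KC2 and 4.35, 5.54, 4.76 and 4.99 CPM in KC1 libraries (log2 fold change 2.03 ± 0.20, adjusted p = 1.02e-05). Gsta3 was at 4.61, 8.99, 12.4 and 4.13 CPM in KC2 and 1.66, 2.28, 1.81 and 1.66 CPM in KC1 libraries (log2 fold change 2.02 ± 0.40, adjusted p = 0.00129). Gstt2 rose 2.32-fold, and its log2 fold change of 1.22 was 0.93 without KC2 replicate 1. Gstp1 (adjusted p = 0.0703), Gstm5 (0.181), Gsta4 (0.422), Gsto1 (0.675), Mgst1 (0.790) and Gstt1 (0.973) were not called. Without KC2 replicate 1 Gstm5 was called higher (adjusted p = 0.0277), and Gstp1 was called higher without KC2 replicate 2 or 4 (adjusted p = 0.050 and 0.0486). Mgst2 had 119 counts over KC2 and 9 over KC1 libraries.

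Akr1b8 (gene 14187 on chromosome 6, from base 34354146 to 34368461), an aldo-keto reductase that detoxifies carbonyls, was at 224, 107, 141 and 102 CPM in KC2 and 15.1, 8.15, 12.5 and 4.99 CPM in KC1 libraries, 14.1-fold higher (log2 fold change 3.82 ± 0.37, adjusted p = 1.10e-05). Nqo1 was at 11.4, 4.88, 7.10 and 4.62 CPM in KC2 and 1.31, 0.652, 1.27 and 0.485 CPM in KC1 libraries, 7.51-fold higher (log2 fold change 2.90 ± 0.45, adjusted p = 0.000264). KC2 replicate 1 was the highest library for both genes, and without it the log2 fold changes were 3.52 and 2.57. Abcc1 was at 17.5, 22, 19.7 and 27.8 CPM in KC2 and 152, 158, 169 and 154 CPM in KC1 libraries, 7.28-fold lower (log2 fold change -2.86 ± 0.16, adjusted p = 2.38e-07), while Abcc4 was 2.54-fold higher (60.8 ± 6.60 against 24.0 ± 1.62 CPM). Both exporters separated the groups without overlap and in opposite directions. Esd fell 3.12-fold and Cbr1 fell 1.48-fold. Akr1b3 (adjusted p = 0.0894), Cbr3 (0.0972), Ephx1 (0.146) and Ugdh (0.664) were not called, and Ephx1 was called higher without KC1 replicate 2 (adjusted p = 0.000689), which held 69.2 CPM against 21.0 to 29.3 CPM in the other KC1 libraries.

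**Figure D5:**
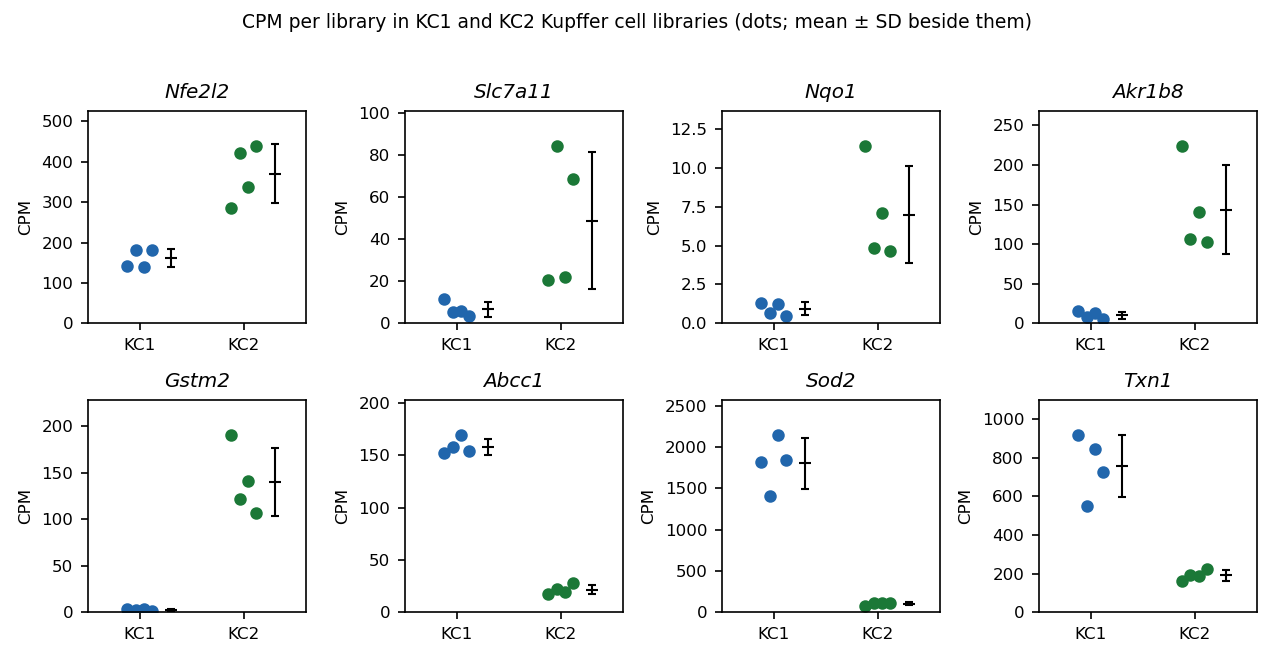
Level in CPM (vertical axis, from 0) of 8 genes in each of 4 KC1 and 4 KC2 libraries (dots), with the mean and SD beside them. Nfe2l2, Slc7a11, Nqo1, Akr1b8 and Gstm2 are higher in every KC2 library, and Abcc1, Sod2 and Txn1 are lower in every KC2 library.

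Of the other 56 pathway genes 49 were tested in Kupffer cells, and 13 rose and 19 fell. Prdx5, a mitochondrial and peroxisomal peroxiredoxin (8.15-fold, 238 against 1941 CPM), Glrx, glutaredoxin (7.96-fold), and Hmox1, the heme oxygenase that macrophages use to break down heme (7.45-fold, 404 ± 189 against 3009 ± 321 CPM), were the most strongly lower in KC2. Chac1, which degrades glutathione (25.4-fold), and Aox1 (52.8-fold, 8 counts in KC1) were higher, and Gpx8, a peroxidase of the endoplasmic reticulum, had 438 counts in KC2 and 2 in KC1 (count ratio 181, 95% interval from 49.9 to 1502).

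Across the 5 groups Nqo1 was at 20.6 CPM in KO, 13.6 CPM in WT, 0.0182 CPM in normal liver, 0.931 CPM in KC1 and 6.99 CPM in KC2 cells, where the tables were scaled separately and levels between tables were not tested. Gstm2 was at 2.71, 24.3, 6.16, 2.92 and 140 CPM in the same order. Both genes were called in all 3 comparisons, as were Nfe2l2, Keap1, Slc7a11, Gclm, Txnrd1, Srxn1, Prdx1, Gpx4, Sod1, Gstt2, Mgst3, Esd and Abcc4. The limits given above hold here too, among others for Gclm, Prdx1, Sod1, Gpx4, Srxn1, Txnrd1 and Keap1. Of all genes tested 64.5%, 87.2% and 59.8% were called in the 3 comparisons, and the share called in all 3 was not counted. A call did not mean the same direction. Gstm2 was lower in KO against WT and higher in the other comparisons, whereas Nqo1 was higher in each.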

How the data were processed

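RNA of 17 libraries in 5 groups was analysed. The authors deposited expected counts per gene in 3 tables, made with FastQC, HISAT and RSEM on build mm10 per the submitters' processing notes, which give no versions or roles; the annotation, gene filter and strand setting are not stated there or in the labels. RSEM divides shared reads by a model, so paralogs (Gstm, Gsta, Gstt, Gstp, Akr1b and Cbr genes) are uncertain singly. WT values were identical in both early HCC tables. Expected counts were rounded to whole numbers and each comparison was fitted with edgeR 4.0.16 in R 4.3.3 (quasi-likelihood F test, TMM scaling, filterByExpr) on its 2 groups only, with Benjamini-Hochberg adjustment over all tested genes, after the same code had been tested on simulated data. Alternatives were DESeq2 1.42.0, RLE size factors, no filter, each replicate left out, a replicate block, a joint fit and centring on chromosome medians. CPM is relative to the library total times its TMM factor, as mean ± SD. A floor of 3 counts in 1 library was 0.161 to 0.195 CPM of the unscaled total; it and the exact 95% intervals of count ratios cover counting error only. Replicate pairs had a chi-square per degree of freedom of 1.84 or more, so none was merged. Positions are from RefSeq on GRCm38, the assembly of mm10, counted from 1. The members and lists were chosen with earlier results of these data known. Library values are given for the regulators, Nqo1, Slc7a11, Gclc, Gclm, Txnrd1, Srxn1 and up to 8 members with the largest called change per comparison, and of other pathway genes the 3 with the largest called change in each direction are named.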

Additional observations from a re-analysis of the deposited data

Results flagged for a closer look

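In groups of 4 libraries, a library was singled out when its gap to the nearest of the others exceeded the 95% critical value of Dixon's test for the range of the group. Of 80 combinations of a member and a Kupffer cell group 6 were singled out, and chance does so in about 1 of 20. KC2 replicate 1 gave 3 of them: Gpx2 at 1.86 CPM against at most 0.111 CPM in the other KC2 libraries, Gpx3 at 30.9 CPM against 90.4 to 99.6 CPM, and Sod2 at 74.5 CPM against 110 to 117 CPM. KC2 replicate 3 held Prdx1 at 731 CPM against 615 to 630 CPM. In KC1, Gss was at 48.6 CPM in replicate 3 against 37.4 to 38.7 CPM, and Cat was at 110 CPM in replicate 2 against 65.1 to 71.7 CPM. Over all 40 members, KC2 replicate 1 was above every other KC2 library for 13 and below every other for 17. For any gene some library of the 4 is highest and some is lowest, and the share over all genes was not counted.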

How the results depend on the processing

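Counts of members called moved by less than 1.5 times under every alternative run: with 1 replicate left out, 13 to 14 higher and 13 to 14 lower in KO against WT, 21 to 22 and 12 in WT against normal liver, and 11 to 14 and 11 to 13 in KC2 against KC1. The same call was kept by 29 of 33, 34 of 36 and 31 of 38 tested members in every alternative other than centring. The replicate block gave 14 higher and 14 lower, 22 and 12, and 12 and 11 members, and only Sod1 in Kupffer cells lost its call. Whether replicate numbers pair the samples stayed undecided. Deviations from group means over genes with a mean count of at least 10 had correlations of -0.18 to 0.14 for same-numbered libraries. For other-numbered libraries they ran from -0.13 to 0.17, and such low values cannot exclude pairing. Nqo1, Akr1b8 and Gstm1 had the same order of replicates in KC2 and KC1, while others such as Gclc and Slc7a11 did not. Centring on chromosome medians turned Txn1 (-0.051) and Prdx1 (-0.35) in KO against WT and Gstp1 (0.41) in WT against normal liver. Sod2 in KO against WT was called only without WT replicate 3 (adjusted p = 0.0393), Akr1b3 was not called without KO replicate 3 or WT replicate 1 (adjusted p = 0.0862 and 0.0564), DESeq2 did not call Gpx3 (adjusted p = 0.0509), and Gsr was called lower in KC2 without KC2 replicate 2 (adjusted p = 0.0434). Low counts left 7, 4 and 2 members untested in KO against WT, WT against normal liver and KC2 against KC1.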
